A study of Mus musculus with 4 samples.

Results

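The PYHIN genes of the mouse lie side by side on chromosome 1, where they are also called the Ifi200 cluster after the interferon-induced *Ifi20x* names of most of them. The 10 names given for them were looked up among the 55359 gene identifiers of the count table: *Aim2*, *Ifi203*, *Ifi204*, *Ifi207*, *Ifi208*, *Ifi209*, *Ifi213*, *Mnda*, *Mndal* and *Pyhin1*. In the GENCODE M21 annotation 8 of the 10 names are symbols. RefSeq lists *Mnda* as a synonym of *Ifi211* and *Pyhin1* as a synonym of *Ifi209*, so that the names stood for 9 distinct genes, with *Ifi211* standing for *Mnda*. They were followed in T8, a pB-ALL (precursor B-cell acute lymphoblastic leukemia) cell line from an Irf4-/- mouse. All 4 libraries are from Irf4-/- cells and all were transduced with a retrovirus (RV). The 2 control libraries received a virus coding for GFP alone (EV-RV), and the other 2 a virus coding for GFP plus IRF4 (IRF4-RV). Cells that were still viable a day after transduction were sequenced in bulk. T8 names the primary tumor of 1 mouse, from which the paper lists more than 1 line. The labels do not say which line was used. These lines had first been grown on ST2 stromal feeder cells, and the libraries are replicates of culture and not of animals. Titles and tissue name T8, whereas the protocol text of the labels names T11, a line from another tumor, and the libraries were used as T8.

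PYHIN proteins typically join a pyrin domain, which binds other pyrin domains, to a HIN domain, which binds double-stranded DNA. AIM2 senses DNA in the cytosol and assembles with ASC (*Pycard*) and caspase-1 into an inflammasome, in which interleukin-1β and interleukin-18 are matured and gasdermin D (*Gsdmd*) is cleaved. Other members of the family are mostly nuclear or shuttle between nucleus and cytosol, and have been linked to DNA sensing through STING, to transcription and to growth arrest. Many of them are induced by interferons in hematopoietic cells. Interferon-regulated promoters typically carry repeats of GAAA, the core that proteins of the IRF family bind.

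From *Aim2* to *Ifi203* the members spanned 591.8 kb of chromosome 1, at chr1:173350879-173942672 of GRCm38. The order along the chromosome was *Aim2*, *Ifi213*, *Ifi209*, *Ifi208*, *Ifi207*, *Ifi204*, *Mndal*, *Ifi211* and *Ifi203*. *Aim2* is at chr1:173350879-173466040, and the others are *Ifi213* (chr1:173566283-173599274), *Ifi209* (chr1:173630917-173647928), *Ifi208* (chr1:173673675-173698395), *Ifi207* (chr1:173723427-173741747), *Ifi204* (chr1:173747293-173766943), *Mndal* (chr1:173849126-173942491), *Ifi211* (chr1:173896345-173913046) and *Ifi203* (chr1:173920407-173942672). *Ifi211* thus lies within the span of *Mndal*. *Aim2*, *Ifi209* and *Ifi208* lie on the plus strand and the others on the minus strand. Another 5 genes of the cluster, *Ifi206*, *Ifi214*, *Ifi203-ps*, *Ifi202b* and *Ifi205*, lie between or beside them, which makes 14 in all. Among the members, only *Mndal* and *Ifi203* have overlapping exons, over 37 bases on the same strand.

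The promoters are shown to compare their letters between members, and a part of these letters in the fold changes was not tested. RefSeq promoters on GRCm38.p6, from 250 bases before to 50 after an annotated start, were held for 8 of the 9 members, and *Ifi204* had no entry. *Mndal* and *Ifi203* had 2 starts each, so that 10 promoters of 300 bases were searched. The motif was the interferon-stimulated response element in the letters GAAANNGAAA, that is 2 GAAA cores that are 2 bases apart, on both strands. It was present in 7 of the 10 member promoters (70%), against 1131 of 32851 promoters of the same length in the whole table (3.44%). Promoters of these genes resemble each other and are not independent. At the level of genes, 6 of the 8 had a match, and *Aim2* and *Ifi209* had none. The promoter of *Ifi213*, the member with the largest fold change, is at chr1:173599223-173599522 on the minus strand, with its match in capitals beginning 73 bases before the start. The promoter of *Aim2* is at chr1:173420354-173420653 on the plus strand and holds no match, hence no capitals. It lies within the span of *Aim2* given above, so the lower end of the annotated gene was not searched. Both *Mndal* promoters also lie within the span of *Mndal*, whose upper end was searched only under *Ifi203*. The promoters of *Ifi213* and *Aim2* are written 5′ to 3′ along the gene.
Ifi213: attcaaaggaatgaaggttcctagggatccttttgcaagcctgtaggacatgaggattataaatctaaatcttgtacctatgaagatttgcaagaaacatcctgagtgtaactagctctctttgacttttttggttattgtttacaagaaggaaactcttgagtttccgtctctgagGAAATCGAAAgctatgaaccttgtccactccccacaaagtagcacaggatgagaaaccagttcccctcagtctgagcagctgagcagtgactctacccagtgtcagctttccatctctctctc
Aim2: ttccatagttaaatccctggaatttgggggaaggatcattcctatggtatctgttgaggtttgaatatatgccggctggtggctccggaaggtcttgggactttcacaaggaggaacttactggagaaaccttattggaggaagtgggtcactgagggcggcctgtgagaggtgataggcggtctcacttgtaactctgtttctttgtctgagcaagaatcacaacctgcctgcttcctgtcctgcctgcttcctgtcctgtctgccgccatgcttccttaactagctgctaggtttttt

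The matches of the other members are shown with 25 bases on each side, to show which genes share more than the match itself. They begin 58 bases before the start in *Ifi208* (chr1:173673582-173673641, plus strand), 41 in *Ifi207* (chr1:173741816-173741875, minus strand) and 37 in *Ifi211* (chr1:173913049-173913108, minus strand). In *Mndal*, second start (chr1:173880189-173880248, minus strand), and *Ifi203*, first start (chr1:173942493-173942552, minus strand), they begin 36 and 35 bases before the start. Capitals mark the match.
Ifi208: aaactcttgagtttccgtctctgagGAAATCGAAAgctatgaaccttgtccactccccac
Ifi207: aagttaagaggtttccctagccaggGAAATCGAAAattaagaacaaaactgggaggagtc
Ifi211: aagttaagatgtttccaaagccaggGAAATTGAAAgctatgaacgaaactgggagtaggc
Mndal: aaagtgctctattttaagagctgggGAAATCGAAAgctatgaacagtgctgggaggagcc
Ifi203: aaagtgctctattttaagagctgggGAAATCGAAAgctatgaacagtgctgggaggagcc

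These 60 bases had 0 differences between *Ifi213* and *Ifi208*, and likewise 0 between *Mndal* and *Ifi203*. *Ifi207* and *Ifi211* differed at 10 bases, and all other pairs of these 6 member windows at 19 to 31 bases. Over the full 300 bases, *Ifi213* and *Ifi208* were 94% identical, *Mndal* and *Ifi203* 94%, and *Ifi207* and *Ifi211* 87%. The first *Mndal* start had a match of its own on the opposite strand, and the second *Ifi203* start had none. *Ifi209* rose without a match in its promoter, whereas *Ifi204* could not be examined. The *Ifi209* promoter was 95.7% identical to that of its neighbour *Ifi214*, which has the match. In the 10 bases of the match, *Ifi209* differed from *Ifi214* by 1 substitution, G1T, counted from 1 at the 5′ end of the match with the base of *Ifi214* first. The stretches are at chr1:173536002-173536061 (*Ifi214*, minus strand) and chr1:173630755-173630814 (*Ifi209*, plus strand), with the aligned bases in capitals.
Ifi214: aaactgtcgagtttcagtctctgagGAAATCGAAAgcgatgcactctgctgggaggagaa
Ifi209: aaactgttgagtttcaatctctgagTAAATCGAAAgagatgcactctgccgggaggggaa

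No member promoter held a longer response element of 3 cores, GAAANNGAAANNGAAA (38 of 32851 promoters, 0.116%). The same was true of the ETS-IRF composite element GGAANNGAAA (892 promoters, 2.72%) and of the gamma-activated site TTCNNNGAA (2726 promoters, 8.3%). The longer response element contains the shorter one. A match describes letters in this window, and so does the lack of one.

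Values are gene counts, also given as CPM, the counts scaled to a common library size after TMM (trimmed mean of M values) correction. The libraries held between 31230223 and 37817752 counts. *Irf4* itself checked which virus a library received: the Irf4-/- cells with EV-RV had 8070 and 7600 *Irf4* counts and those with IRF4-RV 95578 and 90693. Gene counts do not show where in *Irf4* the reads lie, so the mean of 241.5 CPM in EV-RV does not check the Irf4-/- label. The log2 fold change of *Irf4* was 3.46 (SE 0.0907, adjusted p = 1.14e-06, edgeR). Pre-B markers were abundant in every library, *Cd79a* with 906 to 922 CPM, while *Rag1* had 0 or 1 counts. Of the 11 progenitor markers tested 4 fell with IRF4-RV, among them the surrogate light chain genes *Vpreb1* (log2 fold change −1.49) and *Igll1* (−1.30), with *Dntt* (−1.55) and *Il7r* (−0.29), and 1, *Bst1*, rose (0.33). Over all genes tested, 13.7% fell and 16% rose. The part of these markers in the PYHIN values was not tested. Macrophage, granulocyte, T and NK, and dendritic cell markers summed to at most 8.62, 2.18, 21.1 and 3.52 CPM, and *Adgre1*, *S100a8*, *Cd8a* and *Itgax* were at 0 in every library. Single genes made up much of these sums. *Trac* fell from 18.4 and 19.1 CPM in EV-RV to 11.5 CPM in both IRF4-RV libraries. *Mrc1* rose from 0.719 and 0.729 to 7.68 and 6.32 CPM, and *Flt3* from 0.689 and 0.444 to 2.98 and 3.08 CPM. *Ly6g* had 1 and 0 counts in EV-RV and 71 and 58 in IRF4-RV, and was high enough to test only in IRF4-RV. Stromal markers stood apart: their sum was 41.2 and 76.4 CPM in EV-RV and 41.4 and 185.1 CPM in IRF4-RV, highest in IRF4-RV replicate 2. The 5 of 6 stromal markers tested had adjusted p-values between 0.222 and 0.521 (edgeR), and *Dcn* was at 0 in 3 libraries. In bulk libraries, fewer expressing cells and less RNA per cell cannot be told apart.

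Re-expression of IRF4 was followed by higher counts of most PYHIN genes but not of *Aim2*. Of the 9 members, 8 were tested and 7 were higher with IRF4-RV at a false discovery rate (FDR) of 0.1: *Ifi213*, *Ifi211*, *Ifi204*, *Ifi208*, *Mndal*, *Ifi203* and *Ifi209*. Their folds ranged from 1.84 (*Ifi209*) to 10.1 (*Ifi213*). No member was lower, also at an unadjusted p under 0.05 (0 genes, edgeR) and with DESeq2 (0 genes). *Aim2* was not called and *Ifi207* was too low to be tested. For comparison, 4349 of all 14637 genes tested were called (29.7%), 16% higher and 13.7% lower. The 8 members tested had a median log2 fold change of 1.36, while the median of all genes tested was 0.00726. Each of the 8 had at least 12 counts in every library, so none was tested on the strength of IRF4-RV alone. Summed over the 9 members, the level was 207 and 185.3 CPM in EV-RV and 375.3 and 404.5 CPM in IRF4-RV.

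**Figure D1:**
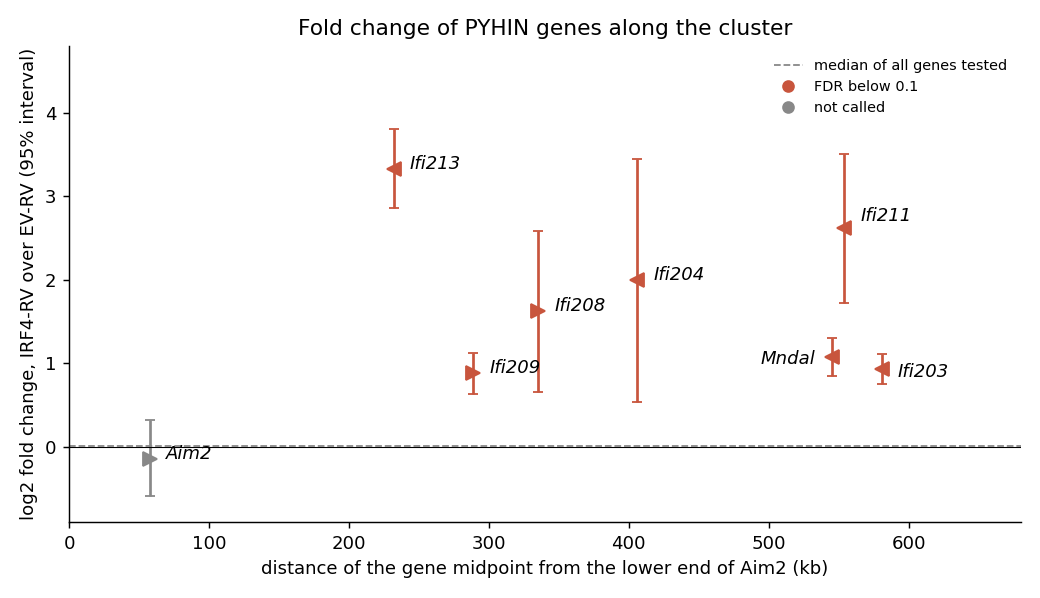
Log2 fold change of the 8 members tested (y axis, IRF4-RV over EV-RV, bars are 95% intervals from edgeR, 2 libraries per group) against the distance of the gene's midpoint from the lower end of *Aim2* in kb (x axis). Arrowheads give the strand. Colored points passed an FDR of 0.1, and *Aim2*, at −0.14, is the only point in grey.

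The bulk of the PYHIN counts came from *Ifi203*, *Mndal* and *Ifi209*, which together held between 93.5% and 96% of the members' counts in each library. *Ifi203*, which encodes a nuclear PYHIN protein, had 3655 and 3244 counts (110 and 103 CPM) in EV-RV and 6698 and 7580 (198 and 208 CPM) in IRF4-RV. Both IRF4-RV libraries thus lay well above both controls and close to each other. The log2 fold change of *Ifi203* was 0.93 (SE 0.0768, 95% interval 0.76 to 1.11, adjusted p = 0.000145, edgeR). *Mndal*, named for its likeness to the myeloid nuclear differentiation antigen, had 1698 and 1366 counts (50.9 and 43.3 CPM) in EV-RV and 3276 and 3750 (96.7 and 103 CPM) in IRF4-RV. Its groups did not overlap either, with a log2 fold change of 1.08 (SE 0.0988, interval 0.85 to 1.31, adjusted p = 0.000253). *Ifi209*, the gene listed as *Pyhin1*, had 1254 and 999 counts (37.6 and 31.7 CPM) in EV-RV and 2058 and 2437 (60.8 and 66.9 CPM) in IRF4-RV. It had the smallest rise of the 7, with a log2 fold change of 0.88 (SE 0.108, interval 0.63 to 1.13, adjusted p = 0.00108). The intervals of these 3 genes overlap one another, and differences between their fold changes were not tested.

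Among the members that rose, the less abundant ones had larger fold changes and wider errors than *Ifi203*, *Mndal* and *Ifi209*. *Ifi213* had 32 and 27 counts (0.959 and 0.856 CPM) in EV-RV and 281 and 365 (8.30 and 10.0 CPM) in IRF4-RV. Replicates of this gene were close in both groups, and its log2 fold change of 3.33 (SE 0.201, interval 2.86 to 3.80, adjusted p = 3.07e-05) ranked at place 98 among the 14637 genes tested. *Ifi211*, the gene listed as *Mnda*, had 18 and 31 counts (0.539 and 0.983 CPM) in EV-RV and 114 and 217 (3.37 and 5.96 CPM) in IRF4-RV. Its replicates differed more, yet the groups stayed apart, with a log2 fold change of 2.62 (SE 0.385, interval 1.72 to 3.51, adjusted p = 0.00247). *Ifi208* had 30 and 12 counts (0.899 and 0.381 CPM) in EV-RV and 70 and 70 (2.07 and 1.92 CPM) in IRF4-RV. The spread in *Ifi208* sat in the controls, and its log2 fold change was 1.63 (SE 0.417, interval 0.66 to 2.59, adjusted p = 0.0269). Without EV-RV replicate 1 it was 2.37 and without EV-RV replicate 2 it was 1.15, both still called, the second only just.

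*Ifi204* encodes p204, a PYHIN protein linked to STING-dependent sensing of DNA, and its rise rested on 1 library. It had 22 and 19 counts (0.659 and 0.603 CPM) in EV-RV and 33 and 148 (0.974 and 4.07 CPM) in IRF4-RV. IRF4-RV replicate 2 was thus 4.17 times as high as replicate 1, which lay only slightly above the controls. The log2 fold change of *Ifi204* was 2.00 (SE 0.626, interval 0.54 to 3.45, adjusted p = 0.0558, edgeR), and without IRF4-RV replicate 2 it was 0.63 (adjusted p = 0.535). The same library had the highest stromal marker sum, 185.1 CPM against 41.2 to 76.4 CPM in the other 3. It also had the highest values of *Ifi211*, *Ifi203*, *Mndal*, *Ifi209* and *Ifi213*, though not of *Ifi208*. In EV-RV, replicate 2 had the higher stromal sum, the lower *Ifi204* value and the higher *Ifi211* value. The part of stromal cells in the values of *Ifi204*, *Ifi211* and the other members was not tested.

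*Ifi207* was nearly silent, with 0 counts in both EV-RV libraries and 1 and 3 counts in IRF4-RV. All 4 values were at or under a floor of 3 counts, and no fold was computed. Its promoter carries the motif, as shown above.

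*Aim2*, the DNA sensor of the family, did not follow its neighbours. It had 198 and 144 counts (5.93 and 4.57 CPM) in EV-RV and 179 and 156 (5.29 and 4.28 CPM) in IRF4-RV, so that the groups overlapped. Its log2 fold change was −0.14 (SE 0.196, interval −0.59 to 0.32, adjusted p = 0.675, edgeR). The direction was not stable: without EV-RV replicate 1 the value was 0.06, and without IRF4-RV replicate 2 it was 0.01. For each of the 7 members that rose, the lower bound of the interval (0.54 to 2.86) was above the upper bound of *Aim2* (0.32). A test of the difference between genes was not run.

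**Figure D2:**
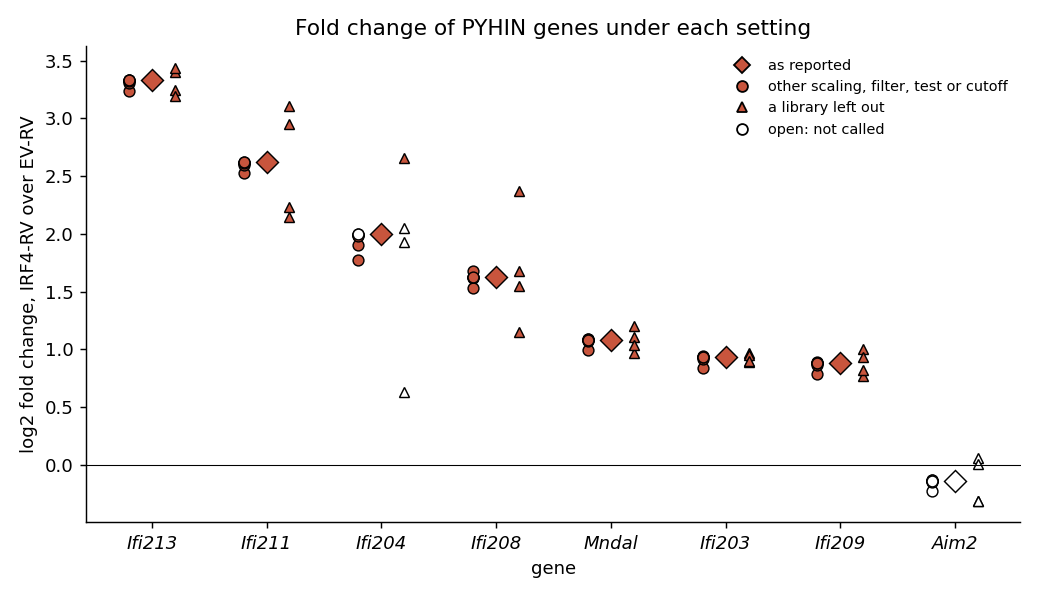
Log2 fold change of each member tested (y axis, IRF4-RV over EV-RV) as reported (diamonds), under another scaling, filter, test or cutoff (circles), and with a library left out (triangles). Filled symbols were called and open ones were not. *Ifi204* spreads from 0.63 to 2.66 and *Aim2* lies on both sides of 0, while the other 6 members stayed called.

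Levels of different genes were compared as CPM per kb of annotated exon. In EV-RV the order was *Ifi203* (15.8), *Mndal* (13.0), *Ifi209* (9.76), *Aim2* (1.50), *Ifi211* (0.427), *Ifi204* (0.177), *Ifi213* (0.133), *Ifi208* (0.122) and *Ifi207* (0), as means of 2 libraries. *Aim2* was thus 6.51 times lower than *Ifi209* and 3.52 times higher than *Ifi211*. Values of *Ifi208* overlapped with those of *Ifi213* and of *Ifi204*, and no other pair of members overlapped. In IRF4-RV the order was *Ifi203* (30.3), *Mndal* (27.5), *Ifi209* (18.0), *Ifi211* (2.61), *Aim2* (1.37), *Ifi213* (1.34), *Ifi204* (0.708), *Ifi208* (0.379) and *Ifi207* (0.0164). The 3 most abundant genes kept their order. *Ifi211* passed *Aim2*, and *Ifi213* reached its level, with overlapping values. Values of *Ifi204* and *Ifi208* also overlapped.

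**Figure D3:**
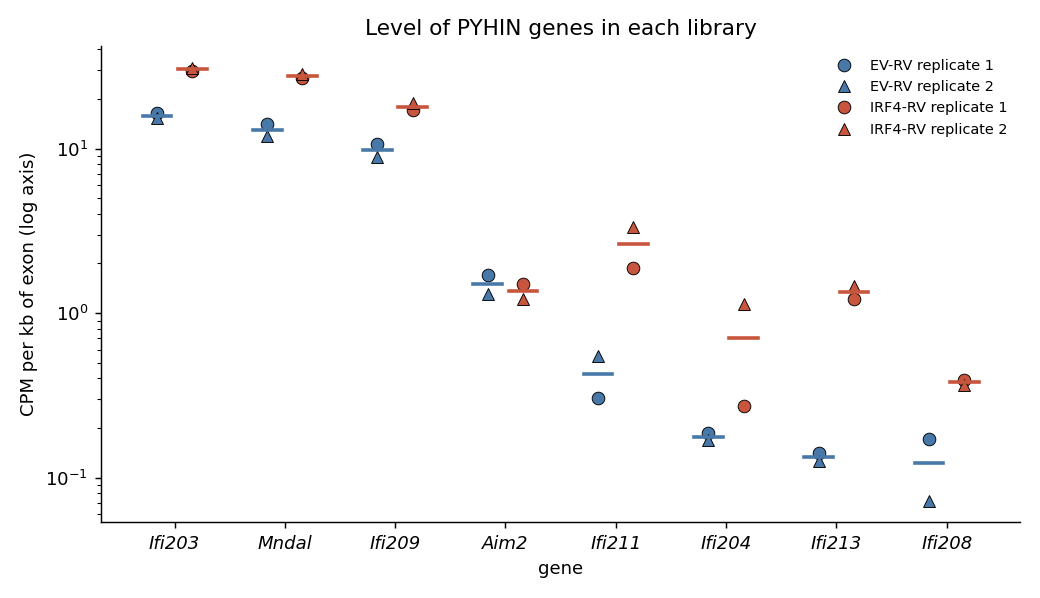
CPM per kb of exon on a log axis (y axis) for 8 members (x axis) in each of the 4 libraries. Points are libraries and bars are means of 2; *Ifi207* is left out because it has values of 0. *Ifi203*, *Mndal* and *Ifi209* lie above all others in both groups, and the *Aim2* points of both groups intermingle.

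The other genes of the cluster are given by their counts, EV-RV first. *Ifi206* had 250 and 160 against 1406 and 1469 counts, *Ifi214* 161 and 132 against 309 and 340, and *Ifi205* 12 and 27 against 72 and 87. All 3 were called higher, so that rises were seen at the *Aim2* end of the cluster as well as at the opposite end. The pseudogene *Ifi203-ps*, with 44 and 53 against 76 and 74 counts, was tested and not called. *Ifi202b*, whose product lacks the pyrin domain, had a single count in the whole experiment. Beyond the cluster's own genes, 44 annotated genes begin within 500 kb of it or lie among its members, and 33 of them had 0 counts in every library. Of the 44, only *Gm18752*, a transcribed pseudogene between *Ifi208* and *Ifi207*, was tested. It had 1 and 0 counts in EV-RV and 31 and 35 in IRF4-RV, a ratio of 60.9 with a 95% counting interval of 10.6 to 2440. *Gm18752* was high enough to test only in IRF4-RV, so only a rise could be called. The locus thus has no tested neighbour outside the cluster to compare with. Of all stretches of 150 bases in *Ifi206* transcripts, 3.65% also occur in *Gm18752*. The part of *Ifi206* reads in the *Gm18752* counts was not tested.

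Because PYHIN genes arose by duplication, reads can fit more than 1 of them, and how such reads were counted is not given in the sources used here. Transcripts of GENCODE M21 were therefore cut into all stretches of 100 bases, and those found in no other gene were counted. The share was 100% for *Aim2*, 99.2% for *Ifi207*, 97.2% for *Ifi203*, 96.7% for *Ifi213*, 94.1% for *Ifi208*, 93.6% for *Mndal* and 89.3% for *Ifi204*. Most of the called genes thus have transcripts made mainly of their own sequence, which does not show where their reads fell. *Ifi209* had 83.1%, with 16.9% shared with *Ifi214*, and *Ifi211* only 43.1%, with 37.2% shared with *Ifi205*. By this share, counts of *Ifi211* are the least certain of the 9. *Ifi206*, which had far more counts than *Ifi208*, had 5.51% of its stretches in common with *Ifi208*. The part of such reads in the low *Ifi208* counts was not tested. The sum of *Ifi211* and *Ifi205*, which does not depend on how reads were split between this pair, was 30 and 58 counts in EV-RV and 186 and 304 counts in IRF4-RV. This sum does not cover reads left uncounted or shared with other genes. *Ifi204* had 9.56% of its stretches in common with *Ifi211*.

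**Figure D4:**
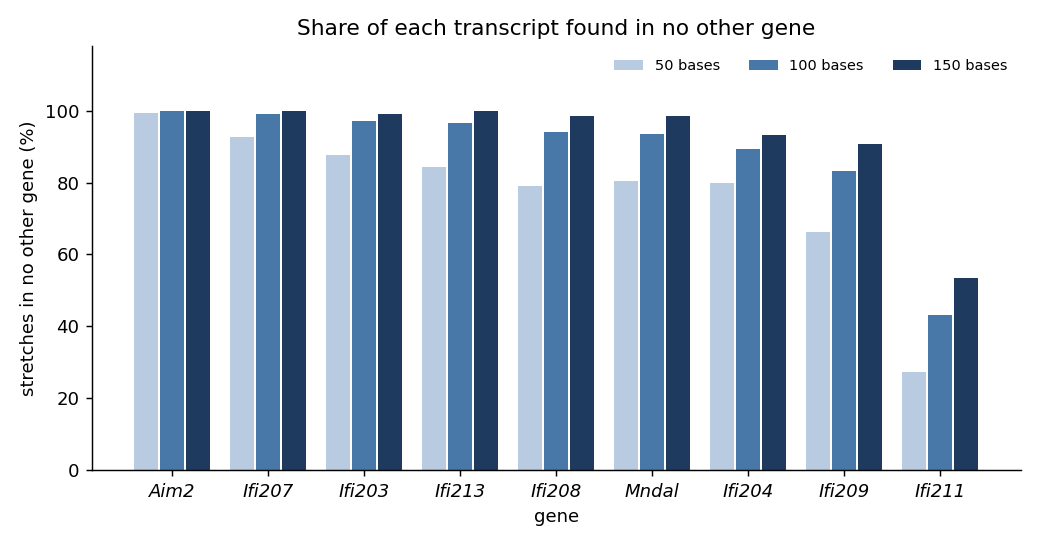
Share of the stretches of a gene's transcripts that occur in no other gene (y axis, percent) for the 9 members (x axis), for stretches of 50, 100 and 150 bases. *Ifi211* is lowest at each length, from 27.2% to 53.6%, and *Aim2* is at 99.3% or above.

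Genes that act with AIM2 or in other pathways of cytosolic DNA sensing were examined as a list of 26, of which 19 were tested. Of these, 10 were higher and 0 lower, with a median log2 fold change of 0.40. Over all genes tested, 16% were higher and 13.7% lower, with a median of 0.00726. At an unadjusted p under 0.05, 1 was lower (edgeR), and DESeq2 called 7 higher and 0 lower. The partners that AIM2 needs were uneven. *Pycard*, the adaptor ASC, had 0 and 1 counts in EV-RV and 1 and 1 in IRF4-RV, and *Il1b* 0 and 1 against 1 and 0, so neither could be tested. *Casp1*, the effector protease, had 201 and 182 counts in EV-RV and 141 and 172 in IRF4-RV, with a log2 fold change of −0.41 (adjusted p = 0.11). *Gsdmd*, which forms the pore, rose slightly, by 0.28 on the log2 scale (SE 0.0987, adjusted p = 0.0816). *Il18* rose from 4 and 3 counts to 48 and 55, a log2 fold change of 3.72 (SE 0.468). *Zbp1*, a sensor of Z-form nucleic acids, had the largest change of the list, from 17 and 17 to 295 and 374 counts, with a log2 fold change of 4.17 (SE 0.211, adjusted p = 1.45e-05). *Casp4*, the caspase that detects cytosolic lipopolysaccharide, had 4 and 3 against 22 and 20 counts (log2 fold change 2.43). *Il18* and *Casp4* were high enough to test only in IRF4-RV, so only a rise could be called, and both are among the 10.

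Of the genes around STING and other DNA sensing, some rose and some were not called. *Cgas*, the enzyme that makes cyclic GMP-AMP when it binds DNA, had 82 and 74 against 117 and 121 counts, a log2 fold change of 0.50 that was not called (adjusted p = 0.125, edgeR). *Sting1*, its receptor, had 94.6 and 95.7 CPM in EV-RV and 128 and 123 CPM in IRF4-RV and rose by 0.40 on the log2 scale (SE 0.0736, adjusted p = 0.00679). *Samhd1*, a nucleotide hydrolase, rose by 1.11 (SE 0.0738, adjusted p = 4.71e-05), from 59.9 and 59.6 CPM to 129 CPM in both IRF4-RV libraries. *Ddx41*, a helicase proposed as a DNA sensor, had 109 and 101 against 92.3 and 93.9 CPM (log2 fold change −0.18, adjusted p = 0.156). *Trex1* and *Mefv* were at 0 counts in every library.

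The list of interferons, their receptors, STATs and IRFs had 25 genes, 21 of them tested. Of these, 15 were higher and 1 lower, with a median log2 fold change of 0.69. Over all genes tested, the shares were 16% and 13.7%. *Usp18*, an interferon-induced brake on the type I receptor, rose from 49 and 51 counts to 2277 and 3023, a log2 fold change of 5.60 (SE 0.161, adjusted p = 1.38e-06, edgeR). *Irf7*, an IRF that amplifies interferon production, rose by 1.93 on the log2 scale (SE 0.128, adjusted p = 4.53e-05). As a point estimate, *Irf7* thus changed more than *Ifi203*, *Mndal* and *Ifi209*, and less than *Ifi213*. *Jak1*, with 248 and 201 against 235 and 221 CPM, was not called (log2 fold change 0.02, adjusted p = 0.913). *Irf8*, the closest relative of IRF4 in the family, fell from 235 and 226 to 186 and 184 CPM, by 0.32 on the log2 scale (SE 0.0702, adjusted p = 0.0152). Among the ligands, *Ifng* had 0 counts in both EV-RV libraries and 29 and 35 in IRF4-RV, at least 9.82-fold higher than a floor of 3 counts per library. *Ifng* was high enough to test only in IRF4-RV, so only a rise could be called, and it is among the 15. *Ifnb1* had 0 and 3 counts in EV-RV and 3 and 0 in IRF4-RV, and *Ifna1*, *Ifna2* and *Ifna4* were at 0 in every library. The floor of 3 counts was a chosen one and corresponds to between 0.0824 and 0.0952 CPM. Counts under it were recorded, and 0 counts do not show that a gene is silent.

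**Figure D5:**
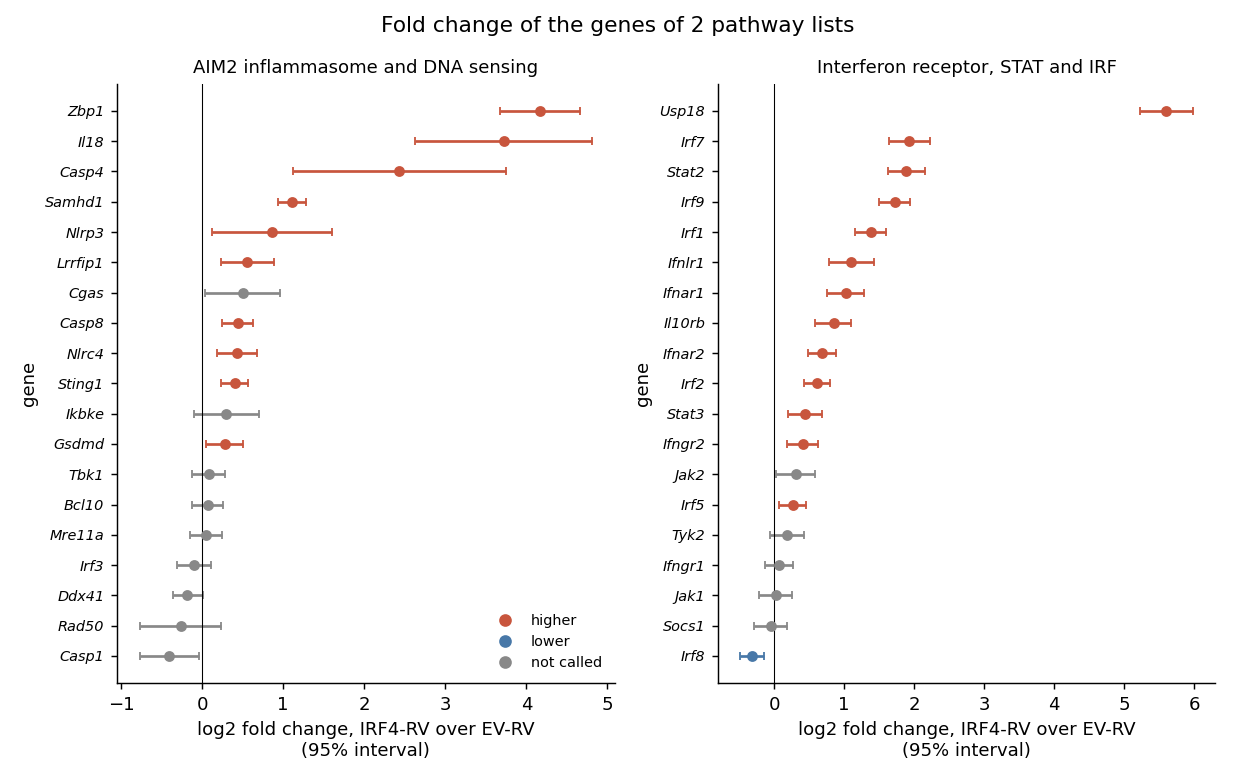
Log2 fold change (x axis, IRF4-RV over EV-RV, bars are 95% intervals from edgeR) of tested genes of the AIM2 and DNA sensing list (left) and of the interferon, STAT and IRF list (right). Color gives the call at an FDR of 0.1; *Ifng*, at 0 in both EV-RV libraries, is left out. On the left 10 genes were higher and none lower, and on the right *Irf8* is the only gene called lower. *Il18* and *Casp4*, on the left, could only be called higher.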

How the data were processed

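RNA from 2 EV-RV and 2 IRF4-RV libraries of T8 cells was sequenced by the authors. According to the methods and the submitters' processing notes, reads were aligned to GRCm38 with STAR 2.4.0j and counted per gene with featureCounts. The deposited values are raw counts, whole numbers without normalization. Settings for strand and multiply aligned reads are not given in the sources used here. Of 55359 gene identifiers, 52083 matched GENCODE M21, which gave symbols, coordinates and exon lengths. The other 3276 are all numbered above the highest identifier in M21, so the annotation used for counting appears newer. Exon lengths, overlaps and shared stretches may therefore differ from those of the genes as counted. Groups were taken from the condition label.

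Genes passing filterByExpr were tested with edgeR 4.0.16 in R 4.3.3 (TMM, quasi-likelihood F test, Benjamini-Hochberg adjustment over all 14637 genes tested, FDR cutoff 0.1), without a replicate block. All adjusted p-values are from this fit unless DESeq2 1.42.0 is named. With 2 libraries per group, p-values measure only the spread between these cultures. Intervals on ratios of counts cover counting error only. All members and Irf4 were named, and in each list the 4 called genes with the largest change, the 2 with the highest level and the partners of AIM2 and STING, of which 1 gene is not reported here. Members and lists were chosen with earlier results of these data known. Promoter sequences are from RefSeq (GRCm38.p6), 14 of them in the cluster. Protein sequences were not used here. The test and the motif search were checked on simulated data. Alternatives covered scaling, filter, tool, cutoff, replicate block and each library left out.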

Additional observations from a re-analysis of the deposited data

How the results depend on the processing

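Under the 11 alternatives, the 6 members called besides *Ifi204* gave 65 values, since *Ifi208* had no value with a mean of at least 50 counts, and all 65 were called in the same direction. Between 6 and 7 members were called higher. *Ifi204* was not past an FDR of 0.05 (2.00, adjusted p = 0.0558, edgeR) and lost its call without EV-RV replicate 1 (2.05, adjusted p = 0.143), EV-RV replicate 2 (1.93, 0.159) or IRF4-RV replicate 2 (0.63, 0.535). *Aim2* ranged from −0.31 to 0.06 with a library left out, and turned positive without EV-RV replicate 1 (0.06) and without IRF4-RV replicate 2 (0.01). Where a library was left out, the lone library of a group was assumed to vary like the others. The members' median log2 fold change was 1.63 with all genes of at least 1 count, where *Ifi207* enters, 1.07 with a mean of at least 50 counts, and 0.97 to 1.62 with a library left out. The AIM2 list had 2 genes lower with library size only, 1 with all genes of at least 1 count, 1 with a mean of at least 50 counts, and 0 to 1 with a library left out. The interferon list had 0 to 1 lower with a library left out (0 without IRF4-RV replicate 2). With all libraries kept, the AIM2 list had between 7 genes higher (DESeq2) and 11 (replicate block). The interferon list had between 14 genes higher (library size only) and 17 (replicate block). *Gm18752* dropped out with a mean of at least 50 counts, leaving 0 neighbours called. The median of all genes moved to −0.0832 with library size only. With a response element of 3 GAAA cores in place of 2, 0 member promoters matched. Causes were not tested.

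Same-numbered libraries share only a number, with a correlation of their deviations of 0.284. With the replicate block, 6394 genes were called in place of 4349, 7 members higher and 0 lower, and 3 genes of the AIM2 list lower. *Ifi207*, *Pycard*, *Il1b* and *Ifnb1*, with at most 3 counts in a library, were not tested.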
